A study of Mus musculus with 5 samples.

Results

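The centromere-proximal peaks described here are the ATRX ChIP-seq peaks of cultured mouse neurons whose summit lies below 5 Mb on chromosomes 1 to 19. Mouse autosomes carry the centromere at one end, and the assembled sequence of each starts at about 3 Mb, so these peaks lie in the first 2 Mb of assembled sequence next to the centromere. They number 8203 of the 651098 peaks in 4 lists: 815 of 96670 in the control, 2749 of 199059 with TBC1D3, 1376 of 141387 with MICAL1-M1 and 3263 of 213982 in young neurons. No list has an autosomal summit below 3 Mb.

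The neurons came from C57BL6/J mouse embryos (E15.5 to E17.5) and were infected with lentivirus on day 5 in vitro, in every group. Control neurons expressed the fluorescent protein mCherry and were collected on day 14 in vitro (DIV14). A second DIV14 culture carried TBC1D3, a hominoid gene that mice lack, another a construct labelled MICAL1-M1, and the last carried mCherry and was taken at DIV7. Each group is 1 library, so no value has a replicate error, no test between conditions was possible, and intervals cover counting error only. The promoter of the lentiviral constructs, the share of infected cells and the number of embryos per culture are not stated in the labels. Expression was not measured, so the neuron label could not be set beside marker genes. The rows of the MICAL1-M1 list are named M2 inside the list, against the label, and the library is called by its label throughout. The input library was not analysed here.

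ATRX is a chromatin remodeller that, with the histone chaperone DAXX, deposits the histone variant H3.3 at telomeres and at pericentric heterochromatin, the compacted, H3K9-methylated chromatin beside centromeres. In mouse nuclei this heterochromatin is seen as bright chromocentres built of satellite repeats, which are mostly missing from the genome assembly. The first assembled bases of each autosome therefore border satellite sequence and in places hold pieces of it.

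The assembled sequence next to the centromere held fewer ATRX summits per Mb than the rest of the same autosomes in the control, and as many in young neurons. In the control there were 21.4 summits per Mb in the proximal 2 Mb and 40.3 in the rest of the autosomes, a ratio of 0.532 (95% interval 0.496 to 0.570). With MICAL1-M1 the densities were 36.2 and 58.6 per Mb, a ratio of 0.618 (0.586 to 0.652). With TBC1D3 they were 72.3 and 81.3 per Mb, a ratio of 0.890 (0.857 to 0.924), and at DIV7 they were 85.9 and 86.3, a ratio of 0.995 (0.961 to 1.03). The proximal windows make up 1.58% of the autosomal sequence and hold 0.847% of the control's autosomal peaks, 0.983% of those with MICAL1-M1, 1.41% of those with TBC1D3 and 1.57% of those at DIV7. In the full lists the interval lies below 1 in the 3 DIV14 libraries and spans 1 at DIV7. With TBC1D3 it spans 1 once the lists are of equal length (below).

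The lists rest on different depths, and the 2 libraries of higher background have the lower ratios. The caller's background over most of the genome, recovered from the fold and p of the peaks, was 3.56 fragments in the control, 2.61 with MICAL1-M1, 1.28 at DIV7 and 1.22 with TBC1D3. All 4 lists reach an uncorrected p of just under 0.05, and both lists of low background are the longer ones. Each list was also shortened to its 96230 autosomal peaks of smallest p, the length of the control's list. The ratio was then 0.966 with TBC1D3 (0.890 in the full list), and its interval of 0.917 to 1.02 spans 1. It was 0.618 with MICAL1-M1 (0.618) and 1.01 at DIV7 (0.995), and this last pair stayed within the intervals of the full lists. Depth and condition cannot be told apart in these libraries.

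The deficit in the control and with MICAL1-M1 was deepest in the first Mb. Summed over the autosomes, the control's density from 3 to 4 Mb was 0.433 of that beyond the window, and from 4 to 5 Mb it was 0.630. It was 0.825 in the next Mb and 0.904 in the one after it. The MICAL1-M1 library went from 0.501 to 0.735, 0.914 and 0.915 over the same 4 steps. With TBC1D3 the 4 values lay between 0.882 and 1.0, and at DIV7 between 0.982 and 1.07. Farther out the control's steps varied: 1.02 from 9 to 10 Mb, 0.744 from 11 to 12 Mb and 0.699 from 14 to 15 Mb. The value from 4 to 5 Mb is thus close to some steps outside the window. With MICAL1-M1 the steps from 9 to 10 Mb and from 14 to 15 Mb were 1.05 and 0.798. In the first 100 kb, summed over the 19 autosomes, lay 9 summits of the control, 32 with MICAL1-M1, 112 with TBC1D3 and 157 at DIV7. In the last 100 kb of the windows the counts were 58, 95, 171 and 169, higher than in the first in every list.

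**Figure D1:**
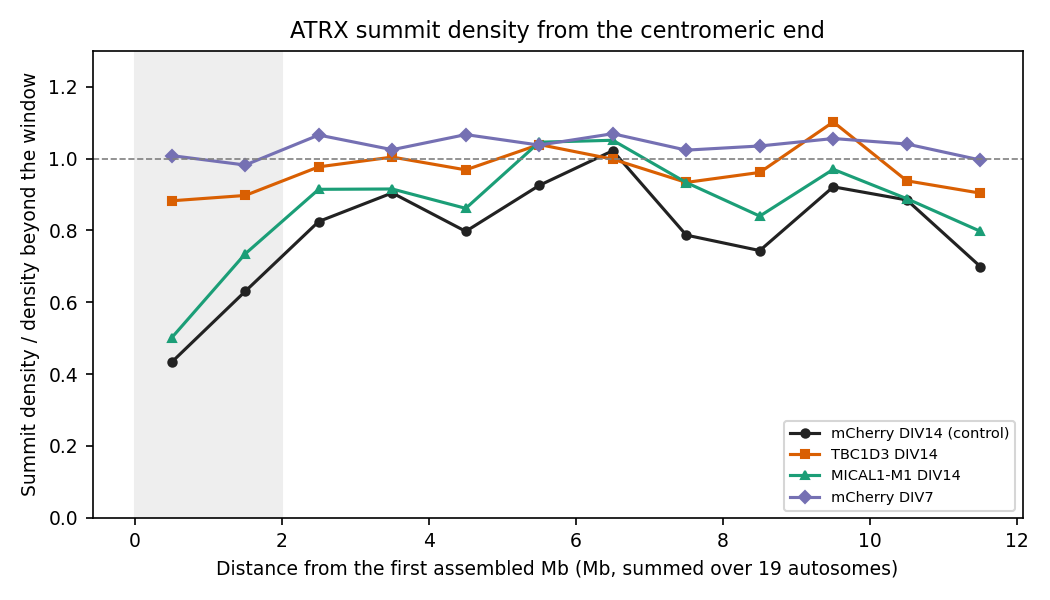
Density of ATRX summits by distance from the first assembled Mb, in steps of 1 Mb summed over 19 autosomes, as a ratio to the density beyond the proximal window; each line is 1 library and the grey band is the window. The control and MICAL1-M1 lines start at 0.433 and 0.501, climb, then vary and end at 0.699 and 0.798. Those of TBC1D3 and mCherry DIV7 start at 0.882 and 1.01.

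The distance to the first summit of a chromosome differed between the lists. In the control the median distance from 3 Mb to the first summit was 279 kb, and it reached 988 kb on chromosome 3. With MICAL1-M1 the median was 142 kb, with TBC1D3 42.0 kb and at DIV7 10.5 kb. A summit lay within the first 100 kb on 3 autosomes in the control, 6 with MICAL1-M1, 15 with TBC1D3 and 17 at DIV7. Long stretches without a summit at the chromosome start were thus common in the 2 lists of higher background. A list with fewer summits has longer gaps on any stretch. In the rest of the autosomes the control held 40.3 per Mb, MICAL1-M1 58.6, TBC1D3 81.3 and DIV7 86.3. Gaps elsewhere were not measured, so these distances cannot be told apart from list density.

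Autosomes differed widely among themselves. The control's proximal density was below that of the rest on 17 of 19 autosomes, and its 95% interval lay below 1 on 16 of them. The same held for 16 autosomes with MICAL1-M1 (interval below 1 on 15), 15 with TBC1D3 (8) and 9 at DIV7 (2). The median ratio over autosomes was 0.501 in the control, 0.595 with MICAL1-M1, 0.865 with TBC1D3 and 1.04 at DIV7. On 8 autosomes (6, 7, 8, 11, 13, 15, 16 and 19) the ratio was below 1 in every list. On another 8 (1, 3, 4, 5, 9, 10, 14 and 18) it was below 1 in the control and above 1 at DIV7.

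Chromosomes 2 and 17 were above 1 in all 4 lists. Chromosome 17 had 94 proximal peaks in the control (ratio 1.34, 1.077 to 1.64), 211 with TBC1D3 (1.33, 1.15 to 1.52), 136 with MICAL1-M1 (1.32, 1.11 to 1.57) and 203 at DIV7 (1.21, 1.04 to 1.39). Each of these intervals lies above 1, and among the 45 windows of 2 Mb on chromosome 17 the proximal one ranked 13, 7, 13 and 8 by density. Chromosome 2 had 104, 183, 133 and 179 peaks, with ratios of 1.21, 1.15, 1.076 and 1.079 whose intervals all span 1. Without chromosome 2 the control's ratio over the other autosomes was 0.492, and without chromosome 17 that of MICAL1-M1 was 0.585.

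Chromosome 3 stood at the other end. Its proximal window held 7 peaks in the control (ratio 0.0808, 0.0325 to 0.166), the lowest density of its 78 windows. The window held 37 with MICAL1-M1 (0.289), 144 with TBC1D3 (0.865) and 205 at DIV7 (1.14), where it ranked 11 of 78. The window has 1 protein-coding gene, Hnf4g, a nuclear receptor of gut and kidney, and gene bodies cover 7.59% of it. Chromosome 15 was similar, with 12 peaks in the control (0.144, 0.0741 to 0.251), 39 with MICAL1-M1 (0.326), 108 with TBC1D3 (0.655) and 155 at DIV7 (0.884). Chromosome 19, with 67 protein-coding genes in its window, had a control ratio of 0.530, and chromosome 17, with 8, the highest. A relation between gene number and ratio over the autosomes was not tested.

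**Figure D2:**
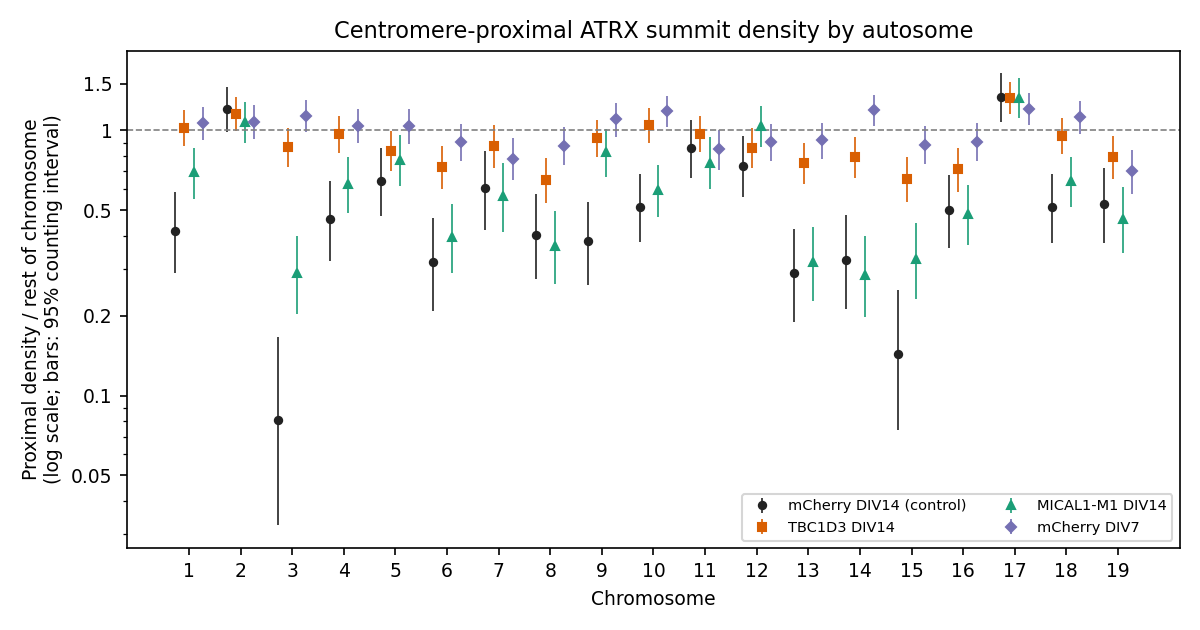
Ratio of proximal summit density to that of the rest of the same autosome, on a log scale, for each library; bars are 95% counting intervals. Chromosome 17 lies above 1 in all 4 libraries, and chromosome 3 runs from 0.0808 in the control to 1.14 at DIV7.

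In the control and with MICAL1-M1 a larger share of the proximal peaks than of the peaks elsewhere lay at gene ends. Gene positions were those of RefSeq for GRCm38.p6, and a gene end is either end of a protein-coding gene with 1 kb on each side. In the control 22.8% of proximal summits lay at a gene end (19.98 to 25.9), against 9.78% of summits in the rest of the autosomes. With MICAL1-M1 the shares were 12.2% (10.5 to 14.1) and 6.41%. With TBC1D3 they were 5.42% and 4.06%, and at DIV7 5.27% and 3.74%. Gene-end windows cover 4.04% of the proximal sequence and 3.08% of the rest, so gene density differed by less than the control's shares did. Relative to the sequence covered, proximal summits were 5.65 times as frequent at gene ends in the control (3.17 in the rest), 3.02 times with MICAL1-M1 (2.08), 1.34 times with TBC1D3 (1.32) and 1.31 times at DIV7 (1.21). Each share is out of the region's own summits, which were fewer per Mb near the centromere in the control and with MICAL1-M1. A higher share thus need not mean more summits per gene end. With the gene-end windows moved by 20 kb the control's proximal share was 4.42%. With all peaks below 10 Mb counted as proximal it was 11.5%, so the share was lower farther from the centromere.

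In the 3 DIV14 lists the proximal windows held fewer summits per Mb between genes than within them. In the control there were 32.1 summits per Mb of gene body and 14.2 per Mb between genes in the proximal windows, against 53.5 and 31.2 in the rest of the autosomes. With MICAL1-M1 the values were 52.2 and 25.4, against 70.6 and 50.3. Both densities were thus below those of the rest, within and between genes. With TBC1D3 the proximal densities were 76.6 and 69.5 per Mb. At DIV7 there were more summits per Mb between genes (89.8) than within them (80.1), and the rest of the autosomes showed 88.4 and 83.3.

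The proximal peaks at gene ends touched about the same share of genes as elsewhere. Of 435 protein-coding genes that reach into the windows, 181 carried one in the control list (41.6%), against 44.5% of all autosomal protein-coding genes. With TBC1D3 it was 144 (33.1%, against 34.9%), with MICAL1-M1 162 (37.2%, against 40.6%) and at DIV7 163 (37.5%, against 34.5%). There were 28 genes with a gene-end summit in all 4 lists (6.44%, against 6.61%). In at least 1 list 322 had one (74.0%, against 75.8% of the genes in the rest of the autosomes). By symbol class, 6 of 7 Zfp zinc finger genes were occupied in the control, 2 with TBC1D3, 4 with MICAL1-M1 and 5 at DIV7. Olfactory and vomeronasal receptor genes, 2 and 3 in number, were occupied in none of these 5 cases in the control, in 2 with TBC1D3, in none with MICAL1-M1 and in 2 at DIV7. Of 54 genes with predicted-gene symbols 16, 14, 9 and 22 were occupied, in the same order of libraries. The same classes were not counted outside the windows, so whether these counts are particular to the windows was not tested.

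Among the 28 genes occupied in all 4 lists, the 25 with the highest control fold are named here, where fold is the authors' ratio of ChIP pileup to the caller's background within 1 list. First came Morc2a, an ATPase that works with the HUSH complex in silencing repeats. Its control peak (chr11:3647528-3649791) had a fold of 5.70 (25 fragments over a background of 3.56, q = 6.5e-09), and the folds at the gene were 2.23 with TBC1D3, 2.10 with MICAL1-M1 and 2.42 at DIV7. Second came Fzd1, a Wnt receptor, with a control peak (chr5:4757586-4758682) of 5.19-fold (24 fragments, q = 1.8e-07) and folds of 2.22, 3.60 and 1.75 in the other lists. Next came Dnajc27, a small GTPase with a J domain, with folds of 3.88, 2.26, 3.04 and 1.75. These control peaks pass a q of 0.05, as do those at the shared end of Dusp18, a dual-specificity phosphatase, and 4921536K21Rik (3.72-fold) and at Ubald1 (2.92-fold).

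The other members of this group had control folds between 2.39 and 3.07, none with a q of at most 0.05. They included neuronal genes, such as Nefh, the heavy neurofilament subunit (2.41, 2.25, 3.04 and 2.39 in the control, TBC1D3, MICAL1-M1 and DIV7 lists), Lrfn4, a synaptic adhesion protein (2.63, 2.26, 2.35 and 2.34), and Syt12, a synaptotagmin (2.85, 2.71, 1.64 and 2.39). Zbtb2, a zinc finger transcription factor, had its highest fold with TBC1D3 (3.61) and 3.07 in both mCherry lists. Genes of mitochondria were Mrpl15, a mitochondrial ribosomal protein, Mterf1a, a mitochondrial transcription termination factor, and Ndufs8, a subunit of respiratory complex I, with control folds of 2.85, 2.79 and 2.53. The remaining names are Akap12, a kinase anchoring scaffold, Bpnt2, a Golgi nucleotide phosphatase, Ap1b1, a clathrin adaptor subunit, Gdi2, a Rab inhibitor, Plcxd3, Myadm, Xkr4, AW549877 and the predicted genes D830030K20Rik, Gm38690, Gm960 and Gm2897. Nefh and Ap1b1 rest on the same peak in every list, as do D830030K20Rik and Gm38690, so these pairs count 1 peak for 2 genes. The peak of a gene can lie at either of its ends and need not be at the same end in each list. A fold from 1 list says nothing of a change in another, since the backgrounds differ.

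The promoters under the control's proximal peaks were rich in CG dinucleotides. Of 619 RefSeq promoters in the windows (GRCm38.p6, 250 bases before to 50 after the transcription start), 165 overlapped a control peak, with a median of 21 CG, and 345 overlapped a peak in no list, with a median of 4 CG. All 32851 promoters of the table have a median of 7 CG. Proximal promoters overlapped with TBC1D3, with MICAL1-M1 and at DIV7 had medians of 21, 22 and 13.5 CG. Overlapped promoters outside the windows were not examined, so whether the trait is particular to the windows was not tested. The Plcxd3 promoter, given below for its few CG, also overlaps a peak in the control and with MICAL1-M1. Shown are the promoters at the strongest control peaks, Morc2a (chr11:3649187-3649486, plus strand, 46 CG) and Fzd1 (chr5:4758167-4758466, minus strand, 16 CG), that of Gm38690 (chr14:3208425-3208724, plus strand, 24 CG), 1 of 2 overlapped in all 4 lists, and that of Plcxd3 (chr15:4375241-4375540, plus strand, 7 CG) for contrast, with CG dinucleotides in capitals, 5′ to 3′:
Morc2a: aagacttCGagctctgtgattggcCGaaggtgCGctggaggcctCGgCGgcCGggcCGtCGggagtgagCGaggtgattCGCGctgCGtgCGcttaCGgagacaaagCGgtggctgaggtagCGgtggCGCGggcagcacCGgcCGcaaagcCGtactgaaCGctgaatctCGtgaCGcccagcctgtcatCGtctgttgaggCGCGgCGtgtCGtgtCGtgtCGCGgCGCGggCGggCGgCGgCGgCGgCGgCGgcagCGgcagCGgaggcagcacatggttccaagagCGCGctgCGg
Fzd1: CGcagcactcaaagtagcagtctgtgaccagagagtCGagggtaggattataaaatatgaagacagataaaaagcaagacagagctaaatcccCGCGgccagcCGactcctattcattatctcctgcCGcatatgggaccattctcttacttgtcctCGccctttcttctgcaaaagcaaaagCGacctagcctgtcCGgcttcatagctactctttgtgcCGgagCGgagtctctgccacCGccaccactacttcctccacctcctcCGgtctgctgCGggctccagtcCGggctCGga
Gm38690: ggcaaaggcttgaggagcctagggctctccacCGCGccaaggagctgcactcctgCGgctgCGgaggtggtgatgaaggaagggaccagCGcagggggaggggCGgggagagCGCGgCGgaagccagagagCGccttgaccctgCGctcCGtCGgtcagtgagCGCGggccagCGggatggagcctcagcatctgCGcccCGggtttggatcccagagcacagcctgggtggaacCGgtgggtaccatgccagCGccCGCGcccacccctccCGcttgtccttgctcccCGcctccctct
Plcxd3: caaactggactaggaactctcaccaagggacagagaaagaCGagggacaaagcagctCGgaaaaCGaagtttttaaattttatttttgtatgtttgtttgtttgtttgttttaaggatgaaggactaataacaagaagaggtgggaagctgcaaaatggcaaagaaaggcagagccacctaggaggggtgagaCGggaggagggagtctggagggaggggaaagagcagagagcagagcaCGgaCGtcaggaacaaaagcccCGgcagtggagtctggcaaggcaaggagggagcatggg

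The motif GGGCGG, a GC box, was present on either strand in 66.1% of the proximal promoters that a control peak overlapped, in 22.3% of those that no list overlapped and in 35.7% of all promoters. With TBC1D3 it was in 78.4% of 51 overlapped promoters, with MICAL1-M1 in 64.2% of 123 and at DIV7 in 53.7% of 82. The telomeric repeat unit TTAGGG, on either strand, was in 6.06% of those overlapped in the control and in 10.6% of all promoters. With TBC1D3 it was in 21.6% of the 51, with MICAL1-M1 in 9.76% and at DIV7 in 11.0%. GGGCGG adds a CG wherever it occurs, so these motif shares and the CG counts are not independent. A match says only that the letters are present.

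Long genes carried many of the proximal summits inside genes. Frmd4a, a scaffold protein gene of 596 kb on chromosome 2, held 57 summits in the control, 71 with TBC1D3, 71 with MICAL1-M1 and 72 at DIV7. Tiam2, a Rac exchange factor on chromosome 17, held 26, 29, 33 and 24, or 135, 150, 171 and 124 per Mb, which is above the autosomal density of every list. The 2 bins of 100 kb with the most control summits lay in Tiam2 (chr17:3400001-3500000 with 15, chr17:3300001-3400000 with 13), and the next in Frmd4a (chr2:4000001-4100000 with 13). These bins had like counts in every list: 15, 17, 14 and 12 in the first, 13, 11, 18 and 12 in the second, 13, 14, 13 and 13 in the Frmd4a bin, in the order control, TBC1D3, MICAL1-M1 and DIV7.

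Other long genes differed between lists. Cdk14, a cyclin-dependent kinase, had 43, 49, 77 and 45 summits, most with MICAL1-M1. Arid1b, a subunit of the BAF remodeller, had 27, 38, 33 and 42. Xkr4, a membrane protein gene of 472 kb at the start of chromosome 1, had 18, 53, 43 and 60, or 38.1 per Mb in the control and 127 at DIV7. Gria4, a subunit of AMPA-type glutamate receptors, had 11 in the control, 22 with TBC1D3 and 33 in each of the other lists. Gucy1a2, a guanylate cyclase subunit on chromosome 9, had 8, 50, 22 and 37, and Esr1, the oestrogen receptor, 13, 26, 11 and 36. The control was lowest in all of these but Esr1 (13, against 11 with MICAL1-M1), and it also has the shortest list. Genes that run past 5 Mb were counted over the whole body, so their counts include summits outside the proximal windows. Nearly all of Arid1b (chr17:4994297-5347656) lies beyond 5 Mb, as does most of Cdk14 (chr5:4803384-5380251). Esr1 (chr10:4611989-5005633) lies mostly inside.

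**Figure D3:**
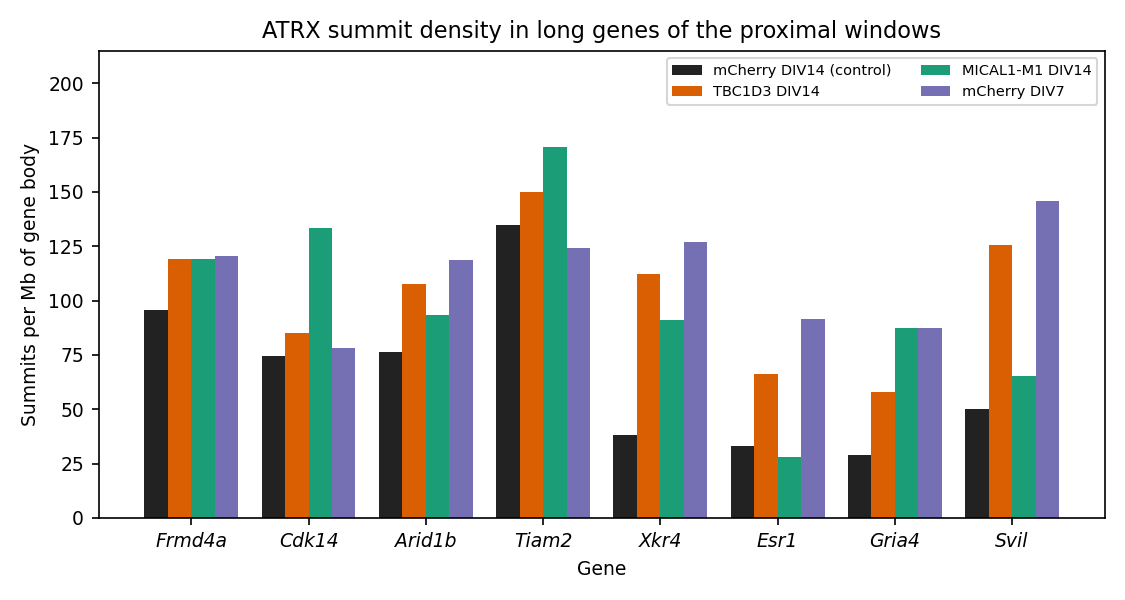
Summits per Mb of gene body in the 8 genes of the proximal windows with the most control summits, 1 bar per library. Tiam2 reaches 124 to 171 per Mb in every library, whereas Xkr4 runs from 38.1 in the control to 127 at DIV7.

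Peaks with a q of at most 0.05 showed another picture from the full lists. They were more frequent among proximal peaks than elsewhere in every list, with MICAL1-M1 through peaks at the start of chromosome 9 (below). In the control 49 of 815 proximal peaks passed (6.01%, 4.48 to 7.87), against 4.17% in the rest and 4.19% of all autosomal peaks. With TBC1D3 70 passed (2.55%, 1.99 to 3.21), against 0.118% in the rest and 0.152% of all. With MICAL1-M1 27 passed (1.96%, 1.3 to 2.84), against 0.425% and 0.44%, and at DIV7 60 (1.84%, 1.41 to 2.36), against 0.159% and 0.186%. The difference is large in the 3 lists other than the control's. By density, these peaks were 19.3 times as frequent per Mb in the proximal windows as in the rest with TBC1D3. The ratio was 11.5 at DIV7, 2.85 with MICAL1-M1 and 0.766 in the control (0.566 to 1.02, which spans 1).

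Median fold and width of proximal peaks did not set them apart. The median fold was 2.19 in the control's proximal peaks and in its rest, 2.26 in both with TBC1D3, 2.18 and 2.21 with MICAL1-M1 and 2.19 in both at DIV7. Median widths were 437 and 432 bp, 322 and 324 bp, 396 and 405 bp, and 335 and 329 bp. The difference thus lay in few peaks.

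Where the low-q peaks lay also differed by list. In the control 31 of the 49 were at a gene end and 3 at the start of chromosome 9. With TBC1D3 18 of 70 were at the start of chromosome 9, 28 elsewhere on a raised background, 2 at a gene end and 22 in none of these places. With MICAL1-M1 19 of 27 were at the start of chromosome 9 and 4 at a gene end. At DIV7 26 of 60 were at the start of chromosome 9, 31 elsewhere on a raised background and 0 at a gene end. A raised background means here that the caller's own background under the peak is at least 5 times that over most of the genome, a threshold set with the data in view. Without the start of chromosome 9 the share with a low q was 5.67% in the control, 1.9% with TBC1D3, 0.590% with MICAL1-M1 and 1.05% at DIV7. The control's interval (4.18 to 7.49) then starts just above the 4.17% of its peaks in the rest. It spans the 4.19% of all its autosomal peaks. The MICAL1-M1 interval (0.255 to 1.16) then spans the 0.425% of its peaks in the rest of the autosomes.

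**Figure D4:**
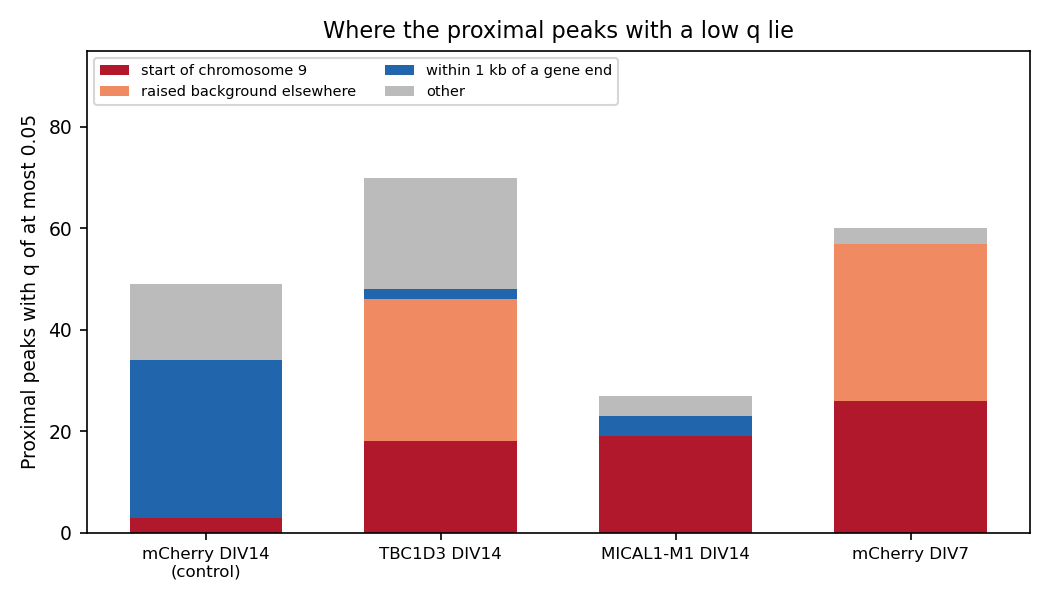
Number of proximal peaks with a q of at most 0.05 in each library, stacked by place: start of chromosome 9, raised background elsewhere, gene end, other. The control's bar of 49 is mostly gene ends (31), while that of DIV7 holds 26 at chromosome 9 and 31 on a raised background.

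The low-q control peaks at gene ends belonged to 35 of the 435 genes. Of all autosomal protein-coding genes, 8.99% had such a peak. With TBC1D3 2 of the 435 had one (0.151% of all genes), with MICAL1-M1 4 (1.41%) and at DIV7 none (0.238%). Outside the genes ranked above, and chosen after their values were seen, Suv39h2, a histone H3K9 methyltransferase of pericentric heterochromatin, had a control peak of 3.94-fold at a gene end and one of 2.17-fold with MICAL1-M1, and none in the other lists. Ctxn1, cortexin, had 3.72-fold in the control and 2.77-fold with MICAL1-M1, and Rps9, a ribosomal protein, 3.31-fold in the control alone. The TBC1D3 pair was Sfi1, a centriole protein gene (5.74-fold), and Camsap3, a microtubule minus-end protein (4.50-fold).

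The start of chromosome 9 carried the largest proximal pileups in the control, with MICAL1-M1 and at DIV7, and with TBC1D3 the largest but 1. In its first 39 kb lay 4 peaks in the control, 18 with TBC1D3, 19 with MICAL1-M1 and 26 at DIV7, and they covered 4.50%, 80.5%, 27.1% and 65.6% of that stretch. Their median pileup was 1149.5 fragments in the control, 1695.5 with TBC1D3, 917 with MICAL1-M1 and 1019.5 at DIV7. The caller's background under them was also high in every list: its median was 268 times the genome background in the control, 212 times with TBC1D3, 189 times with MICAL1-M1 and 199 times at DIV7. The ChIP pileup was 323, 1393, 351 and 794 times the genome background. Median folds were therefore 1.16 in the control, 6.52 with TBC1D3, 1.79 with MICAL1-M1 and 4.12 at DIV7. Of the 25 autosomal peaks of smallest p, 1 lay here in the control, 16 with TBC1D3, 18 with MICAL1-M1 and 20 at DIV7.

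The same summits recurred there across lists. The summit at base 3018576 was identical to the base in all 4 lists. At this base the control had 1071 fragments over a background of 774 (1.38-fold), TBC1D3 1776 over 241 (7.36-fold), MICAL1-M1 1132 over 521 (2.17-fold) and DIV7 1509 over 329 (4.58-fold). Relative to each genome background the caller's background was 217, 198, 200 and 256 times, and the pileup 301, 1459, 434 and 1175 times. The background multiples thus differed less between lists than the pileup multiples did. The pileup was higher with TBC1D3 and at DIV7 than in the other pair. Whether every list was called against the same input library is not stated. If so, the background multiples come from the same reads, and their likeness was fixed in advance. The 3 other control summits of this stretch, at 3020245, 3024475 and 3025560, had counterparts within 6 bp in every list. Whether the reads come from this stretch or from satellite copies that the assembly lacks was not tested, and the labels do not say how reads with several matches were placed.

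**Figure D5:**
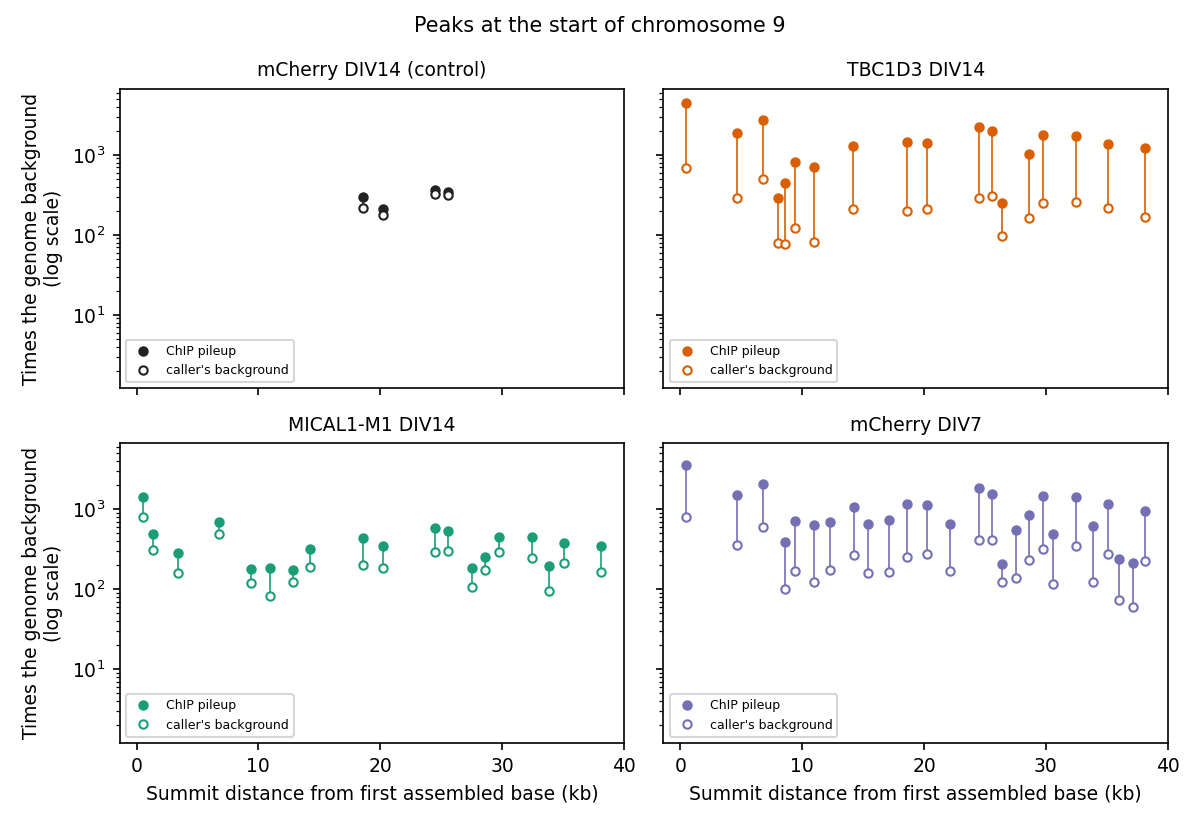
ChIP pileup (filled) and the caller's background (open) of each peak in the first 40 kb of chromosome 9, as multiples of the genome background on a log scale, by distance from the first assembled base, 1 panel per library. The highest open point is at 321 in the control and at 692, 797 and 804 with TBC1D3, with MICAL1-M1 and at DIV7. In the other lists it belongs to a peak at about base 3000489, where the control has none. At the shared summit near base 3024475 the open points are at 321, 291, 295 and 414 (control, TBC1D3, MICAL1-M1, DIV7). The filled points stand farthest above the open ones with TBC1D3 (median fold 6.52) and closest to them in the control (1.16).

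The gene table lists 1 feature in this stretch, Mir101c, a microRNA gene of the miR-101 family. RefSeq places mature mmu-miR-101c at chr9:3038680-3038698 on the minus strand (GRCm38.p6). Its nearest peak edge was 377 bp away with TBC1D3, 415 bp with MICAL1-M1, 383 bp at DIV7 and 12833 bp in the control. It is shown because it is the only annotated product of the stretch, with the seed in capitals, 5′ to 3′:
mmu-miR-101c: aCAGUACUgugauaacuga

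With TBC1D3 and at DIV7 peaks on a raised background were also found next to centromeres on other autosomes. The caller's background is known only where a list has a peak, so a raised background without a called peak goes unseen. These counts therefore do not compare the background itself between libraries. In the proximal windows 4 control peaks had a raised background (0.491%), 50 with TBC1D3 (1.82%), 20 with MICAL1-M1 (1.45%) and 84 at DIV7 (2.57%). Without the start of chromosome 9 these shares were 0%, 1.17%, 0.0737% and 1.79%, so nearly all such peaks of the control and MICAL1-M1 lie there. In the rest of the autosomes the shares were 0.0199%, 0.0671%, 0.0231% and 0.0818%. The windows thus hold 17.4%, 27.9%, 38.5% and 33.5% of all autosomal peaks on a raised background, in 1.58% of the sequence. Nearly all lay in the first 400 kb: 4 of 4 in the control, 49 of 50 with TBC1D3, 20 of 20 with MICAL1-M1 and 83 of 84 at DIV7. They were spread over 10 autosomes with TBC1D3 and 9 at DIV7, but over 2 with MICAL1-M1 and only chromosome 9 in the control.

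Several of these places were common to TBC1D3 and DIV7. On chromosome 11 the bin chr11:3100001-3200000, which holds Sfi1 and the pseudogene Pisd-ps1, had 32 summits with TBC1D3, 26 at DIV7, 2 with MICAL1-M1 and 0 in the control. Of these 4 with TBC1D3 and 18 at DIV7 were on a raised background, and the one of smallest p at each had a fold of 3.59 (76 fragments) and 3.18 (114 fragments). Within Sfi1 itself there were 24 summits with TBC1D3, 18 at DIV7, 1 with MICAL1-M1 and 0 in the control. The bin chr17:3000001-3100000, with the related pseudogene Pisd-ps2, had 25 summits with TBC1D3, 9 at DIV7, 0 with MICAL1-M1 and 2 in the control. The bin chr16:3200001-3300000, without a gene in the table, had 23, 15, 1 and 1 in the same order. On chromosome 13 the peak chr13:3372826-3373754 with TBC1D3 had 126 fragments and a fold of 4.19, and at DIV7 the peak there had 154 fragments and a fold of 2.15.

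Other places were seen in 1 list or at lower background. The largest pileup of all proximal peaks was at chr12:3109883-3110120 with TBC1D3, with 6420 fragments over a background of 1977, which is 1625 times the genome background (3.25-fold). No other list has a peak on a raised background in the proximal window of chromosome 12. With TBC1D3 the peak at chr6:3201337-3201621 had 33 fragments and a fold of 8.39, on a background of 2.51 times that of the genome. The bin chr3:4700001-4800000 had 24 summits at DIV7, 15 with TBC1D3, 3 with MICAL1-M1 and 2 in the control.

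The control's proximal peaks recurred more often than its peaks elsewhere with MICAL1-M1 and at DIV7, and with TBC1D3 the interval spans the share elsewhere. A peak counts as recurring when a peak of the other list overlaps it by at least 1 bp. Of the 815, 122 overlapped a peak with TBC1D3 (15%, 12.6 to 17.6), against 12.7% of all the control's autosomal peaks. With MICAL1-M1 it was 223 (27.4%, 24.3 to 30.6), against 22.5%, and at DIV7 143 (17.5%, 14.99 to 20.3), against 12.2%. The other list's peaks cover 2.83%, 1.79% and 3.34% of the proximal sequence and 3.02%, 2.86% and 3.26% of the rest, so coverage was no higher there but for DIV7. In lists of equal length the overlaps were 8.34% (6.54 to 10.5), 23.2% (20.3 to 26.2) and 10.3% (8.30 to 12.6), against 7.27%, 18.7% and 6.52% of the control's peaks in the rest. As shares of the other list's proximal peaks these overlaps are 4.55%, 17.1% and 4.54%, against 6.46%, 15.8% and 5.82% in the rest of those lists. The long lists thus hold proportionally fewer proximal peaks that the control shares. In all 4 lists at once were 34 of the 815 (4.17%, 2.91 to 5.78), against 1.66% in the rest.

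Of these 34 shared peaks the highest control folds were at Morc2a and Fzd1. Next were peaks inside Jcad, a junction protein gene (3.94-fold), at the end of Dusp18 (3.72-fold), inside Adcy9, an adenylate cyclase (3.72-fold), and just beyond 1 kb from an end of Ppp1r14c, a phosphatase inhibitor (3.51-fold in the control, 4.15-fold with MICAL1-M1). Patz1 and Zbtb2, zinc finger transcription factors, followed with 3.11 and 3.07, then Isoc2b with 3.07 and Ubald1 with 2.92. None of these 10 lies on a raised background. Ranking by control fold places the shared peaks at the start of chromosome 9 low, since their control folds are 1.084 to 1.38 on a high background. By q the shared summit at base 3018576 comes before Morc2a in the control (−log10 q of 17.7, against 8.19).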

How the data were processed

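ATRX ChIP-seq was measured in 4 libraries, 1 per group. The submitters' processing notes list, per the labels, these tools: MACS 1.4.2, ChIPseeker 1.26.2, SAMtools 1.9 and Bowtie 1.3.0. Which of them did what, with which settings and on which build, is not given in the sources used here. The authors deposited 1 narrowPeak list per library: a score per peak, a fold (the ratio of pileup to background, each plus 1), the −log10 of an uncorrected p-value and the −log10 of a q-value, and a summit offset. Read totals were not analysed here.

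Members and lists were chosen with earlier results of these data known. Densities count summits from 3 to 5 Mb against the rest of each autosome, up to the last peak in any list; intervals are exact at 95%. Pileup and background were recovered from fold and p as a whole count and a Poisson mean, which matched the deposited log10 p to 0.01 in 99.999% to 100% of each list's rows (rounded), and the step was tested on simulated data. The genome background is the most frequent value. Gene positions are RefSeq's for GRCm38.p6, without strand, a build taken from the data (9.78% of the control's summits outside the windows lay at gene ends, 2.52% with gene ends moved by 20 kb); entries below 3 Mb, placed on scaffolds or patches, were left out. The named genes are protein-coding genes of the windows with a gene-end summit in all 4 lists, by control fold, up to 25; a further step of the rule, genes with a control q of at most 0.05, was not reached. Alternatives changed the limit, q, list length, comparison region, gene-end window, overlap and, per list, the autosome with the most proximal peaks. Python 3.11.15, pandas 2.3.3 and scipy 1.17.1 were used.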

Additional observations from a re-analysis of the deposited data

How the results depend on the processing

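The proximal density ratio stayed below 1 in the control under all alternatives run. With peaks of q at most 0.05 its interval (0.566 to 1.02) spanned 1. With a limit of 4 Mb it was 0.435 in the control and 0.502 with MICAL1-M1; with 10 Mb it was 0.788 in the control, 0.967 with TBC1D3, 0.859 with MICAL1-M1 and 1.04 at DIV7. Against 5 to 7 Mb it was 0.615 in the control, 0.676 with MICAL1-M1 and 0.952 at DIV7. With peaks of q at most 0.05 it was 0.766, 19.3, 2.85 and 11.5 (control, TBC1D3, MICAL1-M1, DIV7), so TBC1D3 and MICAL1-M1 turned to above 1. Without the start of chromosome 9 these were 0.720, 14.3, 0.846 and 6.51. Without peaks on a raised background they were 0.721, 9.89, 0.863 and 0.753 (3 proximal peaks at DIV7). The intervals of 0.846 (0.363 to 1.68), 0.863 (0.371 to 1.71) and 0.753 (0.154 to 2.23) span 1. Both alternatives were added after seeing the data. So the turn with MICAL1-M1 rests on the start of chromosome 9 and the excess at DIV7 on raised backgrounds. That with TBC1D3 remained at this threshold, and a lower one was not tried for the ratio. At 3 times the genome background, 2.51% of proximal TBC1D3 peaks were raised, against 1.82% at 5 times. The TBC1D3 peak chr11:3126963-3127637 stayed in at 4.01 times, where the DIV7 peak, at 15.9 times, was left out. In lists of equal length the ratio with TBC1D3 was 0.966 (0.917 to 1.02, which spans 1). Leaving out the autosome with the most proximal peaks moved it for the control without chromosome 2 (0.492) and MICAL1-M1 without chromosome 17 (0.585).

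Autosomes with a higher proximal density were 1 in the control and 1 with MICAL1-M1 at 4 Mb, 8 with TBC1D3 at 10 Mb, 7, 11 and 5 in the control, TBC1D3 and MICAL1-M1 at q of at most 0.05, 9 with TBC1D3 in lists of equal length, and 4 in the control and 5 with MICAL1-M1 against 5 to 7 Mb. The gene-end share was 11.5%, 4.0%, 7.26% and 3.61% at 10 Mb, 63.3%, 2.86%, 14.8% and 0% at q of at most 0.05, 32.6%, 11.9%, 20.3% and 11.8% with windows of 3 kb, and 15% with MICAL1-M1 in lists of equal length. The overlap with TBC1D3, MICAL1-M1 and DIV7 was 11.0%, 21.0% and 12.4% when 50% of a peak had to be covered, 6.12%, 10.2% and 6.12% at q of at most 0.05, and 8.34%, 23.2% and 10.3% in lists of equal length. It was 19% with TBC1D3 and 31.0% with MICAL1-M1 at 4 Mb, and 23.8% with MICAL1-M1 and 14.3% at DIV7 at 10 Mb. The causes of these shifts were not tested, beyond what is said above of the low-q peaks.

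No paired analysis was possible because each group is 1 library. Joining overlapping peaks of a list changed nothing, since none overlap. The alternative that counts only sequenced bases was not run, because no genome sequence was used here. With a genome background of 1.22 to 3.56 fragments, a peak at the median fold rests on 4 to 10 fragments, which limits every single peak that does not pass q.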

Other observations

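The proximal windows also hold genes whose products act on heterochromatin; these were chosen after their values were seen. Kmt5c, an H4K20 methyltransferase of pericentric heterochromatin, had a gene-end peak of 2.41-fold in the control, 2.79-fold with TBC1D3 and 2.10-fold with MICAL1-M1, and none at DIV7. Its relative Kmt5b had 1.77-fold with TBC1D3 and 2.21-fold with MICAL1-M1. Dnmt3a, a de novo DNA methyltransferase, had no gene-end summit in any list and 7 summits in its body in the control, 20 with TBC1D3, 10 with MICAL1-M1 and 17 at DIV7. Tasor2 and Kdm2a had no gene-end summit in any list either. Asxl2, a Polycomb-related protein, had 2.85-fold in the control and 3.95-fold with MICAL1-M1.

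A few neuronal genes of the windows, chosen in the same way, are given by their values. Cacng8, an AMPA receptor auxiliary subunit, had 2.63-fold in the control, 2.71-fold with TBC1D3 and 2.19-fold at DIV7. Npas4, an activity-induced transcription factor, had 1.80-fold with TBC1D3, 2.22-fold with MICAL1-M1 and 1.75-fold at DIV7 and no gene-end summit in the control. Ppp1r9a, the spine protein neurabin, had 3.07-fold in the control, 3.08-fold with MICAL1-M1 and 3.5-fold at DIV7.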
